A study of Mus musculus with 14 samples.

Results

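Binding of 13 transcription factors was examined at 10 genes for proteins of neutrophil granules and cytosol, of 21627 protein-coding genes on the mouse autosomes and X. The genes were Mpo, Elane, Prtn3 and Ctsg, whose proteins are stored in primary granules, and Ltf, Camp, S100a8, S100a9, Fcnb and Lyz2, whose proteins belong mostly to later granules or the cytosol. They were chosen by name. Every peak with its midpoint inside the gene or within 50 kb of it counted for that gene, and this stretch is called the locus. The loci held 364 of 279955 peaks.

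The peaks came from ChIP-seq of Hoxb8-FL cells, a mouse progenitor line kept growing by an estrogen-dependent form of Hoxb8 together with Flt3 ligand. The labels call the cells LMPP-like (resembling lymphoid-primed multipotent progenitors). All cells were cultured alike, with estradiol, Flt3 ligand and fetal bovine serum, and received no treatment. The factors were Spi1 (PU.1), Cebpa and Cebpb, Runx1, Erg and Fli1, Tal1 with Lyl1 and Lmo2, Gata2, Gfi1 and Gfi1b, and Meis1, each with 1 library and 1 peak list. A rabbit IgG library was not analysed here. Fixation lasted 10 min in formaldehyde of 0.4% or 1%, and the strength used for each factor is not stated in the labels. Lists ran from 3217 peaks (Gata2) to 76378 (Spi1), and hold positions without read counts, so depth is unknown. With 1 library per factor, differences between genes or factors were not checked in replicates and carry no p-value. Positions of peaks do not measure expression, so the labelled cell type was not checked against its markers, and whether these genes were transcribed was not measured.

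Neutrophil granules are filled in a fixed order as the cell matures. Myeloperoxidase and the serine proteases are made first, in promyelocytes, and are packed into primary (azurophil) granules. Lactoferrin and cathelicidin follow in myelocytes and go to secondary granules, and gelatinase granules form last. C/EBP factors, PU.1, Runx1 and Myb are known regulators of the primary granule genes, and C/EBP epsilon is required for secondary granule proteins. Multipotent progenitors stand before all of these stages.

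Sequences just before the start site of 6 of the genes are shown because peaks of Spi1 or of the C/EBP factors covered them and their midpoints fell near motifs for those factors, or, at Camp, covered the promoter where the C/EBP and PU.1 motifs searched had no match. They are from RefSeq (GRCm38.p6, the mm10 build), 250 bases each, read toward the start site on the gene's strand. Capitals mark matches on either strand to TTNNGNAA or TTNNNCAAT (C/EBP), GAGGAA (PU.1), AGGAAG (ETS), or TGTGGT and TGCGGT (Runx). GAGGAA and AGGAAG overlap wherever GAGGAAG occurs.
Mpo promoter, chr11:87793534-87793783, plus strand: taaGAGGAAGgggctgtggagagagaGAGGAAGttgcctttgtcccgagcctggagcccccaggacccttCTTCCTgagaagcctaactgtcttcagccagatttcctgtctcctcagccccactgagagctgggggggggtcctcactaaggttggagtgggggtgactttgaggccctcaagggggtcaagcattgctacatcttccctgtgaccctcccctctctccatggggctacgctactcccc
Elane promoter, chr10:79886062-79886311, plus strand: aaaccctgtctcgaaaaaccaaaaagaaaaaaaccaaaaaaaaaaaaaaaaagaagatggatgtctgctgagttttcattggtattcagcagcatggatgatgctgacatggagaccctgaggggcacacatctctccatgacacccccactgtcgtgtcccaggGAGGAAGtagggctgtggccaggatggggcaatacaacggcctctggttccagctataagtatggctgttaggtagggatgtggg
Prtn3 promoter, chr10:79879417-79879666, plus strand: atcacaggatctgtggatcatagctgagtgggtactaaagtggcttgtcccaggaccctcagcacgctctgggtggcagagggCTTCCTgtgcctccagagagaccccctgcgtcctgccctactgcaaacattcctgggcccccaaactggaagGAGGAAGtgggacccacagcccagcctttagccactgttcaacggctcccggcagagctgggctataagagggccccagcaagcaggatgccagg
Ltf promoter, chr9:111019042-111019291, plus strand: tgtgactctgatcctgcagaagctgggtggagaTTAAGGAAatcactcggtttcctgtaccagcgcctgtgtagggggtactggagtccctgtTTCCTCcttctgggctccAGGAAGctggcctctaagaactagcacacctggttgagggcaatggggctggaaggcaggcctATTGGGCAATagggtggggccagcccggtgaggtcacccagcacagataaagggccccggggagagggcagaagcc
Camp promoter, chr9:109849457-109849706, minus strand: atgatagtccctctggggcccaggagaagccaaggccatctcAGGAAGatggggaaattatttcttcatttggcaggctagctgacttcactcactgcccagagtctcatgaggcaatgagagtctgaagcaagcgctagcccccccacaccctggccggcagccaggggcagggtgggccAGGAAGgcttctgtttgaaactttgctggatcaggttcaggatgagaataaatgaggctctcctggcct
Fcnb promoter, chr2:28084879-28085128, minus strand: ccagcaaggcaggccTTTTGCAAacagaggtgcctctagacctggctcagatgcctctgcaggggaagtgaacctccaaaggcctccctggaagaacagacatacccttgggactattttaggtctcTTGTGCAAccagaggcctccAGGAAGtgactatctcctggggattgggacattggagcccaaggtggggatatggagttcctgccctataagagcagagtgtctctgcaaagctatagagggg

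All 13 factors had a peak in the locus of each of the 4 primary granule genes. The loci of the 6 later genes had between 6 and 11 factors. A peak was present for 52 of 52 combinations of factor and primary gene (100%, exact 95% interval 93.2 to 100), and for 45 of 78 at the later genes (57.7%, 46 to 68.8). Over all protein-coding genes the share was 57.6%, so the later genes together lay at the level of all genes. All 13 factors were present at 5.99% of all protein-coding loci. Within 10 kb of the gene, Ctsg had all 13, the other primary genes had 12 each, and the later genes had 1 to 10. The intervals cover counting error only, and combinations are not independent, since factors share regions and neighbouring genes share peaks. Elane and Prtn3 lie 3.14 kb apart on chromosome 10 and shared 96 of the 103 peaks in either locus. S100a8 and S100a9 lie 22.6 kb apart on chromosome 3 and shared 10 of 13. The 10 genes therefore form 8 separate loci, 3 of them primary.

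**Figure D1:**
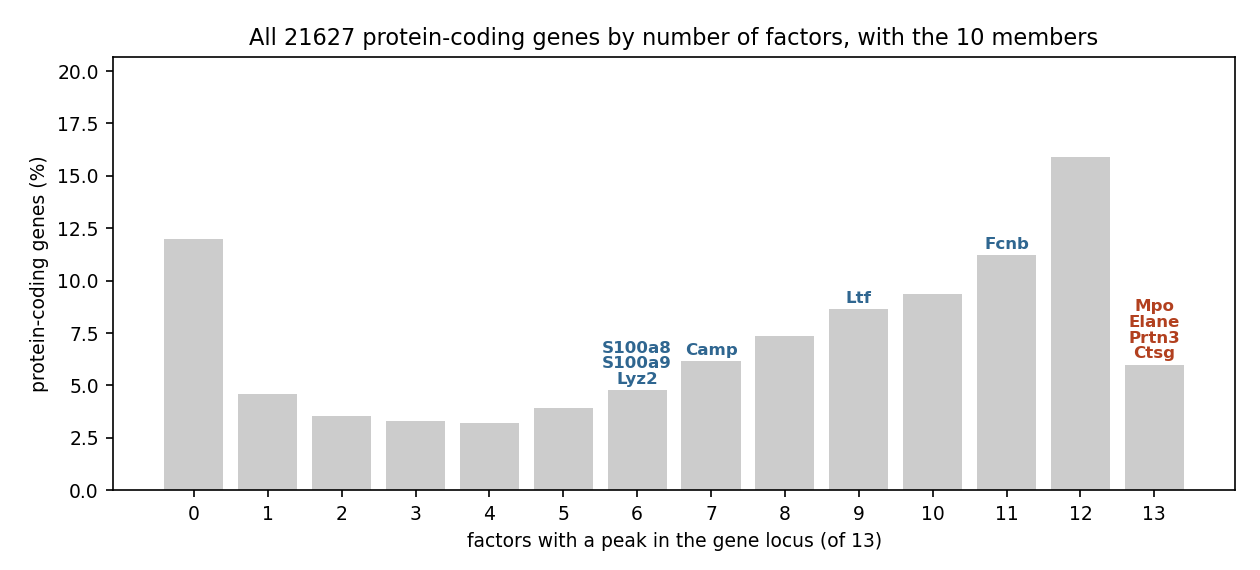
Share of all 21627 protein-coding genes (vertical axis, %) by the number of factors with a peak in the locus (horizontal axis, of 13), with each member written above its bar, primary genes in red and later genes in blue. Mpo, Elane, Prtn3 and Ctsg stand at 13 factors, a bar that holds 5.99% of genes, and the later genes stand at 6 to 11.

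The primary genes also had more peaks. Mpo (chr11:87793784-87804412, plus strand), which encodes myeloperoxidase, the enzyme that makes hypochlorous acid, had 103 peaks in its locus. Elane (chr10:79886312-79888216, plus strand), which encodes neutrophil elastase, had 100, and Prtn3 (chr10:79879667-79883174, plus strand), which encodes proteinase 3, had 99. Ctsg (chr14:56099885-56102574, minus strand), which encodes cathepsin G, had 55. As many peaks as at Mpo were found at 1.43% of all protein-coding loci, and as many as at Ctsg at 13.2%.

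Among the later genes, Ltf (chr9:111019292-111042766, plus strand), which encodes the iron-binding lactoferrin of secondary granules, had the most, 39 peaks. Fcnb (chr2:28076479-28084910, minus strand), which encodes the sugar-binding lectin ficolin B, had 22. Camp (chr9:109847377-109849456, minus strand), the gene of the antimicrobial cathelicidin, had 16. S100a8 (chr3:90669071-90670034, plus strand) and S100a9 (chr3:90692630-90695721, minus strand), whose calcium-binding products pair as calprotectin in the cytosol, had 13 and 10. Lyz2 (chr10:117277541-117282272, minus strand), the gene of lysozyme M, an enzyme found in more than 1 class of granule, had 13. The counts of the 2 groups did not overlap, and the lowest primary gene, Ctsg, lay above the highest later gene, Ltf. The mean was 89.2 ± 22.9 peaks at primary genes (SD over 4 genes) and 18.8 ± 10.7 at later genes (SD over 6 genes). Over all protein-coding genes the mean was 26.9. The medians were 99.5 at primary genes, 14.5 at later genes and 21 over all protein-coding genes. Loci were of like length, 102 to 111 kb for primary genes and 101 to 123 kb for later genes. Per 100 kb the median was 94.4 peaks at primary genes, 14.3 at later genes and 15.8 over all genes.

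How far the groups stood apart depended on which peaks counted. The difference in the share of combinations was 42.3 percentage points with 50 kb either side and 16.7 with 100 kb, where primary genes had 100%, later genes had 83.3% and the highest later gene reached all factors. It was 73.7 points when every list was shortened to its first 3217 lines, the length of the Gata2 list, with 86.5% at primary genes and 12.8% at later genes. When a peak counted only for its nearest protein-coding gene, the groups overlapped. Elane then had 5 factors in 6 peaks, against 11 factors in 22 peaks at Fcnb, and the difference in mean peaks per gene was 14.8 in place of 70.4. Gene density differed between loci as well. The Elane locus held 8 other protein-coding genes, and 35% of its peaks lay within 1 kb of a boundary of one of them. The share was 30.3% at Prtn3, 25.5% at Ctsg and 7.77% at Mpo, against 56.2% at Camp, 17.9% at Ltf and 0 at S100a8, S100a9, Fcnb and Lyz2. Without these peaks the difference in the share of combinations was 44.9 percentage points.

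**Figure D2:**
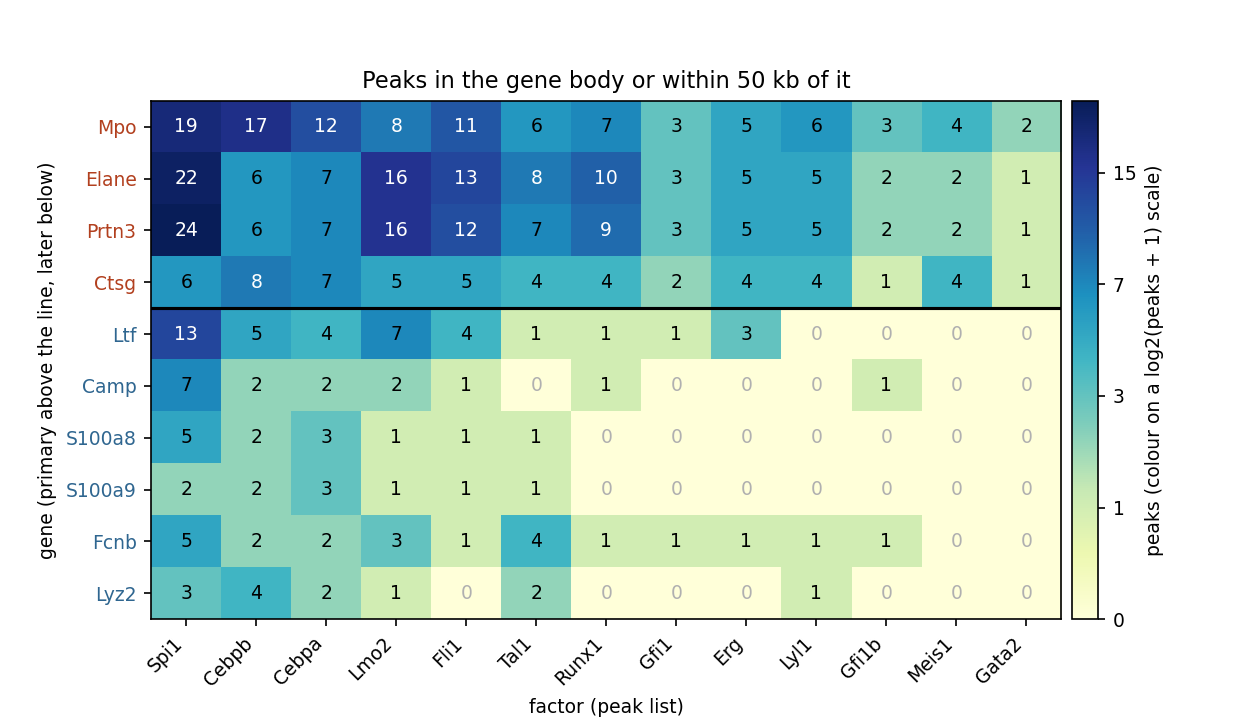
Number of peaks in the locus for each gene (rows, primary genes above the line) and factor (columns), with the number printed in each cell and colour on a log2(peaks + 1) scale. No primary gene has a 0, and the Meis1 and Gata2 columns are 0 at all 6 later genes.

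The C/EBP factors and PU.1, the regulators best known from the granulocyte lineage, had peaks at all 10 genes. Cebpa had 12 peaks at Mpo and 7 each at Elane, Prtn3 and Ctsg, against 4 at Ltf, 3 each at S100a8 and S100a9, and 2 each at Camp, Fcnb and Lyz2. It had a peak at 74.3% of all protein-coding loci. Cebpb had 17 at Mpo, 8 at Ctsg and 6 each at Elane and Prtn3, against 5 at Ltf, 4 at Lyz2 and 2 at each of the others, with a background of 75.5%. Over all protein-coding genes the mean was 3.23 peaks for Cebpa and 3.54 for Cebpb. For both factors every primary gene lay above every later gene, as it did for 9 of the 13 factors. The counts of the groups met or overlapped for the other 4, Gfi1b, Lmo2, Spi1 and Tal1. Among the 9, margins from lowest primary to highest later gene were narrow for Cebpb (6 against 5), Erg (4 against 3) and Fli1 (5 against 4). They were also narrow for Gata2 (1 against 0) and Gfi1 (2 against 1). The 9 factors are not independent, since factors share regions and Elane and Prtn3 share peaks. How often other gene sets of these sizes stand apart was not counted, so the 9 has no background here. Spi1 had 24 peaks at Prtn3, 22 at Elane, 19 at Mpo and 6 at Ctsg, against 13 at Ltf, 7 at Camp, 5 each at S100a8 and Fcnb, 3 at Lyz2 and 2 at S100a9. Its background was 84.7%, with a mean of 7.25 peaks over all genes. Each of these 3 factors was present at most protein-coding loci.

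Lmo2, a bridging protein that reaches DNA through partners such as Tal1, was the only other factor present at all 10 genes (69% of all loci). It had 16 peaks each at Elane and Prtn3, 8 at Mpo and 5 at Ctsg, against 7 at Ltf, 3 at Fcnb, 2 at Camp and 1 each at S100a8, S100a9 and Lyz2. The ETS factor Fli1 was present at 4 of 4 primary and 5 of 6 later genes, missing at Lyz2 (69.7% of all loci). Tal1, a basic helix-loop-helix factor of stem cells and erythroid cells, was also present at 4 of 4 and 5 of 6, missing at Camp (56.8%). Runx1, a core factor of definitive blood formation, was present at 4 of 4 primary genes with 10 peaks at Elane, 9 at Prtn3, 7 at Mpo and 4 at Ctsg. Among later genes it had 1 peak each at Ltf, Camp and Fcnb and none at the other 3 (56.8% of all loci).

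The other 6 factors had a peak at no more than 2 later genes each. Erg, an ETS factor of stem cells, was present at 4 of 4 primary genes and at 2 of 6 later genes, Ltf and Fcnb (51.7% of all loci). The zinc finger repressor Gfi1, which is needed for neutrophil development, was present at 4 of 4 and at 2 of 6, again Ltf and Fcnb (49.1%). Its relative Gfi1b was at 4 of 4 and at Camp and Fcnb (46.5%), and Lyl1, a relative of Tal1, at 4 of 4 and at Fcnb and Lyz2 (40.5%). Meis1, a homeobox cofactor of Hox proteins, had 4 peaks each at Mpo and Ctsg and 2 each at Elane and Prtn3, and no peak at any of the 6 later genes (50.6% of all loci). Gata2, a zinc finger factor of stem and mast cells, had 2 peaks at Mpo and 1 at each other primary gene. It likewise had none at the later genes (23.2% of all loci). Its nearest midpoint lay 33.9 kb from Mpo, 32.1 kb from Elane, 25.4 kb from Prtn3 and 6.35 kb from Ctsg. Within 10 kb of the gene, Gata2 was present at 1 of 4 primary genes (10.6% of all protein-coding genes). With the limit for a count of 0 set at 3 counts, 0 of 6 genes still allows a share of up to 50%. The Gata2 and Meis1 peaks at Elane and Prtn3 were the same peaks, so that 4 genes stand for 3 loci.

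**Figure D3:**
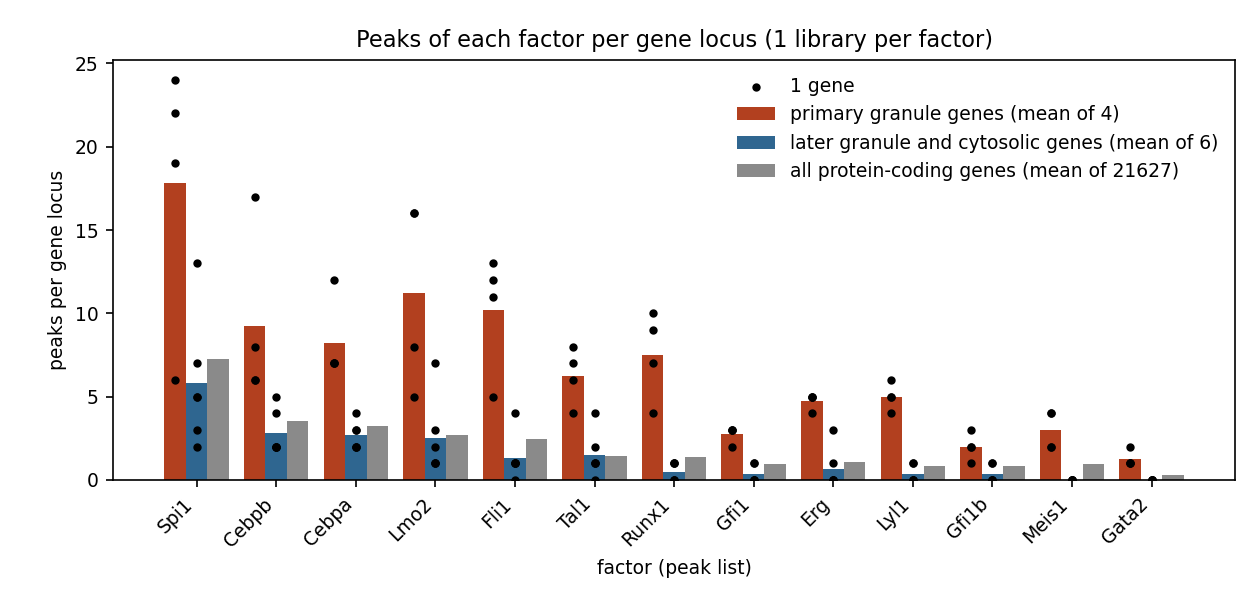
Mean peaks per gene locus for each factor (bars, red for the 4 primary genes, blue for the 6 later genes, grey for all 21627 protein-coding genes), with 1 black point per member (equal counts overlie each other). The red bar is the highest for every factor, at 17.8 against 5.83 for Spi1 and 3 against 0 for Meis1.

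The later genes differed among themselves. Fcnb came closest to the primary genes and lacked only Gata2 and Meis1. Ltf lacked Gata2, Gfi1b, Lyl1 and Meis1. Camp lacked 6 factors, and S100a8, S100a9 and Lyz2 lacked 7 each. By the Jaccard index of the factors present, S100a8 and S100a9 had the same 6 factors. Ltf and Fcnb followed at 0.818, with 9 shared of 11 present at either, and the lowest pair was Camp and Lyz2 at 0.444. S100a8 and Lyz2, on different chromosomes, shared 5 of 7 (0.714), and these were Cebpa, Cebpb, Lmo2, Spi1 and Tal1.

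Peaks at the primary genes were gathered in regions shared by many factors. When touching or overlapping peaks of all lists were merged, the primary loci held 77 regions, of which 8 (10.4%) held 10 or more factors, while the later loci held 45 regions and none with 10 or more. Genome-wide 2.32% of regions held 10 or more. Every primary gene had such a region in its locus, as had 17.3% of all protein-coding genes. Regions with a single factor made up 31.2% at primary genes, 62.2% at later genes and 56.3% genome-wide. The largest number of factors in 1 region was 12 at Mpo and Ctsg and 10 at Elane and Prtn3, against 8 at Fcnb, 7 at Ltf, 6 at S100a8, S100a9 and Lyz2, and 5 at Camp. Spi1 peaks that overlapped no peak of another list numbered 12 of 49 at primary genes (24.5%) and 20 of 33 at later genes (60.6%), with 58.5% over the whole list. These shares were not tested against each other.

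**Figure D4:**
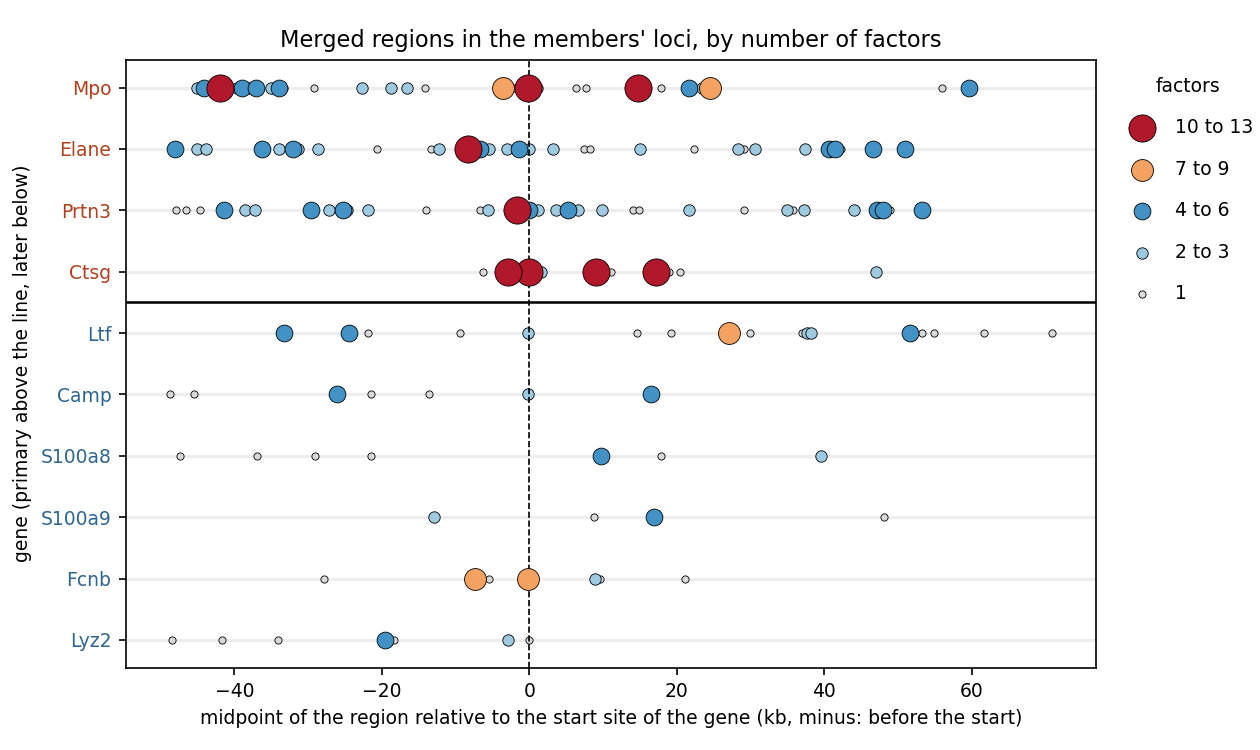
Merged regions in the locus of each gene (rows, primary genes above the line) by distance of their midpoint from the start site of the gene (kb, negative before the start). Points are larger for more factors and run from grey through blue and orange to red. Red points for 10 or more factors appear only in the 4 primary rows, and 4 of them belong to Ctsg. Elane and Prtn3 show the same region.

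Ctsg had the most such regions, 4 in all. The first, with 10 factors, lay over its start site (chr14:56102301-56102807). Another with 10 lay 2.88 kb before the start (chr14:56105038-56105862), and both lacked Gata2, Gfi1 and Gfi1b. A region with 12 factors lay 9.01 kb after the start, beyond the end of the gene (chr14:56093333-56093806), and lacked only Spi1. The fourth, with 11, lay 17.2 kb after the start (chr14:56085127-56085623), where it overlapped Mcpt8, a gene of the mast cell protease family.

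At Mpo a region with 10 factors covered the promoter (chr11:87793344-87793930), lacking Gata2, Gfi1b and Meis1. One with 11 factors lay 4.21 kb beyond the end of the gene (chr11:87808211-87809024), inside Lpo, the gene of lactoperoxidase. The one with 12 lay 42 kb before the start (chr11:87751521-87752049), lacked only Gfi1b, and was nearer to Tspoap1, at 6.41 kb, than to Mpo. Elane and Prtn3 shared a single region of 10 factors (chr10:79877749-79878252), 1.67 kb before the start of Prtn3 and 8.31 kb before that of Elane. It lacked Gata2, Meis1 and Spi1, and the nearest Spi1 midpoint was 0.706 kb away. Cebpa, Cebpb, Erg, Fli1, Lmo2, Lyl1, Runx1 and Tal1 were in all 8 of these regions, and each of them was in 84.9% to 99.6% of all such regions genome-wide. Meis1 was in 6 of 8 (64% genome-wide), Spi1 in 6 (93.3%), Gfi1 in 5 (84.2%), Gfi1b in 3 (67%) and Gata2 in 2 (7.35%).

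At the later genes the most shared regions held fewer factors. In both groups the region with the most factors had its midpoint outside the gene. At Fcnb a region with 8 factors lay 7.35 kb before the start (chr2:28091961-28092493), and one with 7 lay over the promoter (chr2:28084761-28085268). At Ltf the largest, with 7, lay 3.62 kb beyond the end of the gene (chr9:111046088-111046674). S100a8 and S100a9 shared one with 6, between the genes (chr3:90678595-90679061), which held Cebpa, Cebpb, Fli1, Lmo2, Spi1 and Tal1. At Lyz2 a region with 6 lay 19.6 kb before the start (chr10:117301608-117302177), nearer to the neighbour Lyz1. Lyz1 and Lyz2 are close copies, and the labels do not say how reads that match both were treated. At Camp the largest had 5 factors and lay inside Cdc25a, a cell cycle phosphatase gene (chr9:109875249-109875799), 26.1 kb before the start of Camp.

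At the genes themselves the counts of the groups overlapped. Within 1 kb of either boundary of the gene, Mpo had 11 factors, Ctsg 10, Prtn3 5 and Elane 3, against 7 at Fcnb, 3 each at Ltf and Camp, 1 at Lyz2 and 0 at S100a8 and S100a9. The means were 7.25 factors at primary genes and 2.33 at later genes. This measure was not counted over all protein-coding genes, so it has no background here. With lists shortened to 3217 lines the means were 2.5 at primary genes and 0.5 at later genes. The promoters, here 250 bases before to 50 after the start site, were most often covered by Cebpb, Cebpa and Spi1. Cebpb covered 7 of 10 promoters and Cebpa 6, against 15.6% and 14.4% of the 17273 protein-coding genes with a promoter in the RefSeq table. Both together covered 6 (10.7% of all genes), namely Mpo, Elane, Ctsg, Ltf, Camp and Fcnb, 3 in each group. Spi1 covered 6 (24.9% of all genes), all 4 primary promoters and those of Camp and Fcnb. Peaks of the other 10 factors covered 5 promoters, those of Mpo, Prtn3, Ctsg, Ltf and Fcnb (34% of all genes). Taken singly, Lmo2 covered 5 (15.7% of all genes), Erg 4 (11.3%), Fli1 4 (21.8%), Tal1 3 (2.05%), Runx1 3 (15.6%) and Lyl1 2 (1.78%). Gfi1 and Meis1 covered 1 each (5.49% and 1.33%), and Gata2 and Gfi1b covered none (2.19% and 3.99%). Elane and Camp carried the same trio and nothing else, Cebpa, Cebpb and Spi1, although they belong to different granules and had 13 and 7 factors in their loci. S100a8 and S100a9 had no peak over the promoter.

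Of the 6 promoters that Spi1 covered, 3 had a PU.1 motif within 14 bp of the Spi1 midpoint, those of Mpo, Elane and Prtn3 shown above. The share of all Spi1-covered promoters with a motif this near the midpoint was not counted. At Prtn3 the Spi1 midpoint lay 95 bp before the start, 2 bp from the centre of GAGGAA. At Elane it lay 86 bp before the start, 4 bp from the centre of GAGGAA. Mpo has 2 copies, 8 and 14 bp from a Spi1 midpoint 236 bp before the start. At Ctsg the only copy in the 250 bases was 272 bp from the Spi1 midpoint. That midpoint lay 58 bp after the start, where no bases were searched. At Camp and Fcnb, whose promoters Spi1 also covered, GAGGAA was not among the 250 bases. In all, 6 of 10 members had GAGGAA, against 22.5% of 21044 promoters of protein-coding genes, and 9 had AGGAAG, against 28.7%.

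For the C/EBP factors, midpoints fell next to a motif at Ltf and Fcnb. At Ltf the Cebpa and Cebpb midpoints, 81 and 71 bp before the start, were 10 and 0 bp from TTGGGCAA, a match to TTNNGNAA that is also part of a TTNNNCAAT match. At Fcnb they were 8 and 4 bp from TTGTGCAA, with midpoints 112 and 115 bp before the start. At Lyz2 only Cebpb covered the promoter, with its midpoint 18 bp from a TTNNGNAA match. At Mpo, Elane, Ctsg and Camp, whose promoters both C/EBP factors covered, neither form was found in the window. TTNNGNAA was found in 5 of 10 members, Ltf, S100a8, S100a9, Fcnb and Lyz2, all of them later genes, against 34.1% of all promoters. TTNNNCAAT was found in 1 (9.4%). How often C/EBP midpoints fell this near a motif at other covered promoters was not counted. A match of letters is a description and does not show a binding site.

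Other motifs were searched in the same 250 bases. TGTGGT was found at Ctsg, S100a9 and Lyz2 (12.2% of all promoters) and TGCGGT at none (5.88%). Of these 3 genes only Ctsg had a Runx1 peak over the promoter, with its midpoint 44 bp from the match. Runx1 also covered the promoters of Mpo and Prtn3, where neither form was found. The Myb motif AACNG was in all 10, but is in 73% of all promoters. CANNTG (E-box) was in 7 (62.8%), AATCNC (Gfi1) in 3 (28.8%), GATAA (GATA) in 2 (20.5%) and TGACAG (Meis) in 2 (15%). One of these last was at Ctsg, the only member with a Meis1 peak over its promoter. There the match began 111 bp before the start site, whereas the Meis1 midpoint lay only 22 bp before the start site, away from the match.

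**Figure D5:**
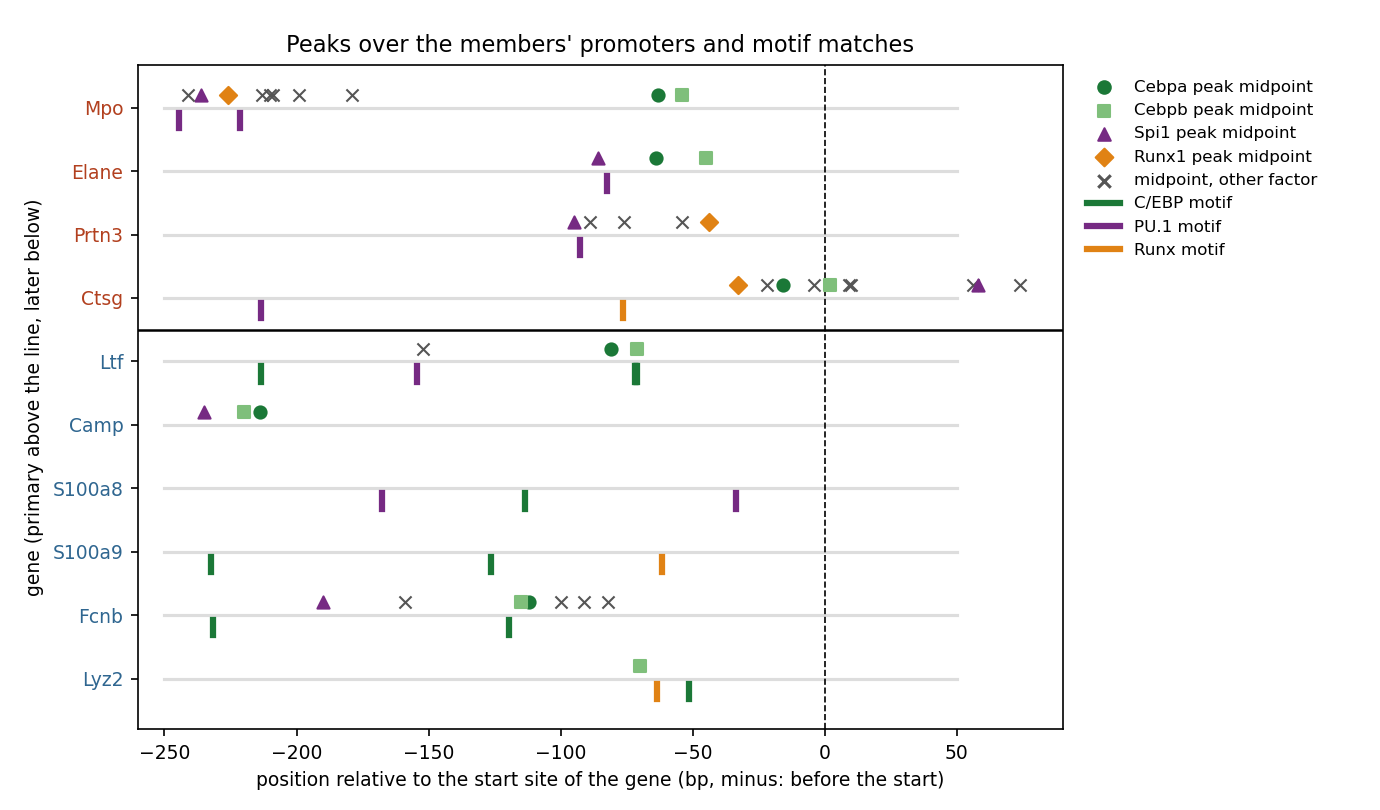
Midpoints of the peaks that cover each promoter (symbols above each grey line) and centres of motif matches in the 250 bases before the start site (bars below it), in bp from the start site of the gene. Spi1 triangles sit beside a PU.1 bar at Mpo, Elane and Prtn3, and C/EBP symbols beside a C/EBP bar at Ltf and Fcnb. At Mpo the C/EBP midpoints, 63 and 54 bp before the start, stand apart from those of the other 8 factors, 179 to 241 bp before it.

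Genes of other granule proteins were compared with the 57.6% of combinations over all protein-coding genes. Of 7 genes for further primary granule proteins and for the processing, packing and inhibition of granule proteases, none had all 13 factors and 4 had a region of 10 or more. They had 74 of 91 combinations (81.3%) and a median of 10 factors, with 12 at Srgn, the core protein of the granule proteoglycan serglycin, and 9 at Prss57, which encodes a further neutrophil serine protease. The 5 genes of gelatinase granules and secretory vesicles had a median of 12 factors and 59 of 65 combinations (90.8%), with 12 at the metal transporter gene Slc11a1 and 11 at Fpr1, a receptor for formyl peptides. Meis1 had a peak at all 5 of them and Gata2 at none. The 8 further secondary granule genes ranged from 13 factors at Ngp, the neutrophilic granule protein gene, to 0 at Chil3, which encodes a chitinase-like protein, with 58 of 104 combinations (55.8%). The 4 cytosolic genes had 67.3% of 52 combinations. They ranged from 13 factors at S100a6, which encodes a calcium-binding relative of the calprotectin subunits, to 1 at Stfa2l1, a stefin A family gene. Across the lists other than gelatinase granules and vesicles, Gata2 had a peak at 1 of the 7 primary granule and processing genes. It was at 2 of the 8 secondary granule genes and 2 of the 4 cytosolic genes. Meis1 was at 5, 3 and 3 genes of these lists, in the same order. The median over all protein-coding genes was 9 factors. Regions of 10 or more factors were not particular to primary granule genes. Such a region was in the locus of 3 of the 5 gelatinase granule and vesicle genes. The same held for 2 of the 4 cytosolic genes and 1 of the 8 further secondary granule genes, against 17.3% of all protein-coding genes. Slc11a1 had 4 of these regions, as many as Ctsg.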

How the data were processed

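Peak lists of 13 factors in Hoxb8-FL cells were used as the authors deposited them: chromosome, start and end in bp on mm10, 400 bp per peak, with no score. MACS2, Bowtie2 and bedtools are the tools named, and mm10 and GRCm38 the builds, per the submitters' processing notes. Their versions and roles, the threshold for a peak and the part played by IgG are not stated there. Any of these can change how many peaks a list holds. Of 279958 lines, 3 on other sequences than the 19 autosomes and X were left out. Coordinates count from 1.

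Genes, start sites and promoters came from RefSeq tables of GRCm38.p6. All 10 members were found in both tables. Exons and untranslated regions were not analysed here. Peaks of all lists that touched or overlapped were merged into 121980 regions, and a region counted for a locus by its midpoint. Shares have exact (Clopper-Pearson) 95% intervals. The members, the other gene lists and the motifs were chosen with earlier results of these data known. Named beyond the members were the gene with the most and the one with the fewest factors of each other list (ties by more peaks), and genes nearer to a named region. The counting recovered every planted combination of gene and factor in simulated lists. Python 3.11.15, numpy 2.4.6, pandas 2.3.3, scipy 1.17.1 and matplotlib 3.10.9 were used. Alternatives changed the window, the lists, the assignment of peaks and the later genes.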

Additional observations from a re-analysis of the deposited data

How the results depend on the processing

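All 4 comparisons of primary with later genes kept their direction under each alternative run, while their size moved. The difference in the share of combinations (42.3 percentage points) was 55.8 with 10 kb either side, 16.7 with 100 kb, 53.8 with only the first 50% of each list and 73.7 with lists shortened to the shortest. The difference in the most factors in 1 region (4.67) was 6.25 with 10 kb and 6.92 with shortened lists. The difference in peaks per gene (70.4) was 29.7 with 10 kb, 37.2 with 25 kb, 37 with the first 50% of the lines, 18.3 with shortened lists, 14.8 with peaks given to the nearest gene and 51.3 without peaks near another gene's boundary, an alternative chosen after seeing the data. The difference in factors within 1 kb of a boundary (4.92) was 2 with shortened lists and 7.17 within 2 kb. The cause of these moves was not tested, beyond the fewer or more peaks that each alternative leaves. Leaving out 1 list at a time gave 37.5 to 45.8 percentage points, 3.83 to 5.42 factors in 1 region, 58.5 to 69.2 peaks per gene and 4.17 to 4.92 factors near a boundary.

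No paired analysis was possible because each factor had 1 library and no test was run. Depth is unknown, so the absence of a peak does not show the absence of binding.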

Other observations

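The Mpo locus also takes in a microRNA gene. Mir142, which is expressed throughout the blood lineages, lies 36.9 kb before the start of Mpo (chr11:87756864-87756927). A region with Cebpa, Cebpb, Fli1, Runx1 and Spi1 peaks overlapped it (chr11:87756441-87756894), and the region with 12 factors in the Mpo locus had its midpoint 5.08 kb from it.

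The peaks over the promoters stood at very different places in the lists, whose order of lines is not explained in the sources used here. At Mpo the Erg peak was line 39 of 9014, the Fli1 peak line 51 of 22034 and the Spi1 peak line 283 of 76378. At Prtn3 the Erg peak was line 8263, and at Ctsg line 8743. The Spi1 peaks over the promoters of Elane and Camp were lines 20208 and 59420 of 76378, while the Cebpb peak at Fcnb was line 893 of 37795 and that at Camp line 2853.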
